A study of Homo sapiens with 34 samples.

Results

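RNA of undifferentiated H1 human embryonic stem cells (ESCs) with an shRNA against ZNF503 was compared with RNA of WT cells at day 0, before cardiac differentiation was begun. The comparison holds 4 of the 34 libraries of the study, 2 of ZNF503 shRNA cells and 2 of WT cells, which the series describes as biological replicates. Its libraries are those with these labels, and 16891 of 23189 gene symbols had enough counts to be tested. H1 is an established ESC line. All cells here carried a GIPZ lentiviral vector, had been selected with puromycin and were grown in E8 medium on matrigel. ZNF503 shRNA cells are a single line, picked from several hairpins by real-time PCR of the target. WT cells are H1 that received a control virus, with either no hairpin or a hairpin aimed at GFP, and the labels do not say which was used for which library. Another 4 day 0 libraries, 2 of NKX2-5 shRNA cells and 2 of ZEB2 shRNA cells, entered the same model and serve below as a second reference. With 1 line per target, the effect of the target and that of the line cannot be told apart.

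ZNF503 encodes a zinc finger protein of a small family, with ZNF703, whose members are known to repress transcription together with corepressors and which act in brain, limb and heart development. Primed human ESCs are held in the pluripotent state by POU5F1, SOX2 and NANOG, with FGF2 and activin or NODAL signals from outside. NODAL, a ligand of the TGF-beta family, induces its own inhibitors LEFTY1 and LEFTY2, and higher NODAL and WNT activity marks the entry into mesendoderm, the source of endoderm and heart.

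Total counts, with 1 RefSeq row per gene, were 44453543 and 74263191 in the ZNF503 shRNA libraries and 38772103 and 39310365 in the WT libraries. A single-gene count of 3, used here as the detection floor, equals 0.0404 to 0.0774 CPM (counts per 1000000 counts) in these libraries. The replicates correlated at r = 0.9975 (ZNF503 shRNA) and 0.9976 (WT) on log2(CPM + 1) across genes, which are not independent replicates. Levels are given as CPM after TMM scaling and are not corrected for gene length. Fold changes are ZNF503 shRNA over WT on the log2 scale from edgeR's quasi-likelihood model, with the standard error (SE) and the Benjamini-Hochberg adjusted p over all genes tested. A gene was called at a 2-fold change and 10% false discovery rate (FDR). In bulk RNA of this kind, fewer cells of a type and less RNA per cell cannot be told apart.

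The targeted gene could not be measured at day 0. ZNF503 had 7 and 8 counts in the ZNF503 shRNA libraries and 4 and 4 counts in the WT libraries. The log2 fold change was 0.29 (SE 0.71, edgeR adjusted p = 0.84), so a knockdown was not detectable at this depth. At day 6, when WT cells held 8.62 and 9.13 CPM of ZNF503, the ZNF503 shRNA libraries held 0.598 and 0.635 CPM (log2 fold change -3.84, edgeR adjusted p = 6.3e-07). At day 2 the ZNF503 shRNA libraries held 1.01 and 1.85 CPM and the WT libraries 1.16 and 2.12 CPM, so the groups overlapped. The target was thus lower at day 6, did not separate the groups at day 2 and cannot check the labels at day 0. At day 6, when 27.4% of all genes tested were called, knockdown and a missing rise of ZNF503 in these cells cannot be told apart. The paper reports a knockdown of the target by real-time PCR. ZNF703, the related gene, was as low at day 0, with 16 and 6 counts against 7 and 4.

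None of POU5F1, NANOG and SOX2, the core of the stem cell network, was called, but NANOG and SOX2 were slightly lower. POU5F1, the transcription factor that defines pluripotent cells, stood at 785 and 768 CPM in ZNF503 shRNA cells and at 781 and 796 CPM in WT cells (log2 fold change -0.02, SE 0.09). Its sign changes without a scaling factor (0.013). NANOG, its partner, held 161 and 163 CPM against 204 and 190 CPM (log2 fold change -0.28, SE 0.08, edgeR adjusted p = 0.061), and SOX2 held 149 and 141 CPM against 182 and 171 CPM (-0.28, SE 0.09, edgeR adjusted p = 0.074). Both lie below WT in each library. NANOG and SOX2 thus passed the FDR threshold of a call and missed only the 2-fold threshold. Of the 9 stem cell markers listed, the 8 tested spanned log2 fold changes of -0.35 to -0.02. None of the 33 pluripotency network genes tested was called, their fold changes ran from -0.64 to 0.39, and their median was -0.14 beside 0.01 over all genes tested. At an unadjusted p under 0.05, 16 of the 33 passed. The markers of ESCs were therefore present at high level in both groups.

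Over all genes, 433 were called (percent called 2.56), 223 higher (1.32) and 210 lower (1.24) with ZNF503 shRNA. The libraries of the 2 groups did not overlap for any called gene, and 63.0% of all genes tested also did not overlap. The falls were larger and lay in rarer transcripts than the rises. The median log2 fold change was -1.80 among genes called lower and 1.34 among genes called higher, and 86 lower but 41 higher genes differed at least 4-fold. The mean of the higher group was at least 10 CPM for 31 of the lower and 36 of the higher genes. In 12 lower genes both ZNF503 shRNA libraries were at 0 counts and in 18 they held 1 to 3 counts together. For these genes a bound or a counting interval is given below in place of the fitted change. Leaving out ZNF503 shRNA replicate 2, the deepest of the 4 libraries, left 119 calls, and leaving out any one of the others left 178 to 237.

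**Figure D1:**
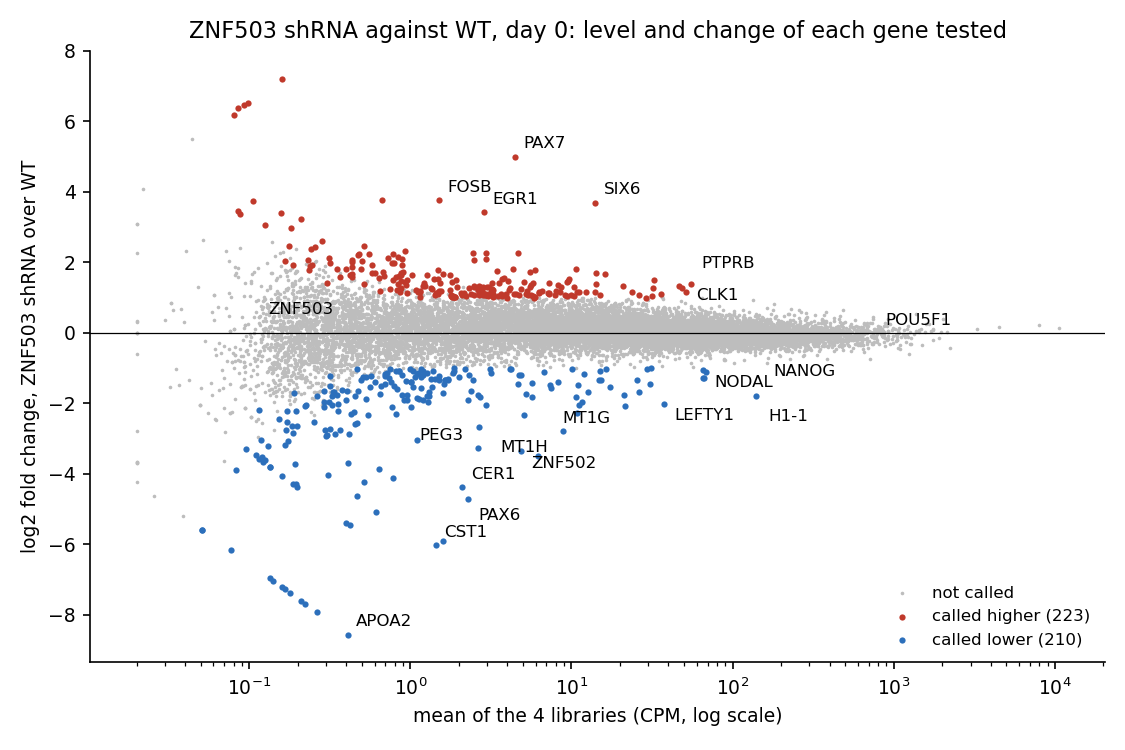
Mean level of each gene over the 4 libraries (horizontal axis, CPM on a log scale, with levels under 0.02 drawn at 0.02) against its log2 fold change, ZNF503 shRNA over WT at day 0 (vertical axis). Red points are the 223 genes called higher, blue points the 210 called lower and grey points the other genes tested, and named genes are labelled, with POU5F1 and NANOG near 0, PAX7 highest among those labelled, and APOA2, at 0 counts in both ZNF503 shRNA libraries, lowest.

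NODAL signalling genes were among the abundant genes that fell. NODAL itself held 41.7 and 35.5 CPM in ZNF503 shRNA cells and 98.9 and 90.3 CPM in WT cells. Its level was 40.8% of WT (log2 fold change -1.30, SE 0.17, edgeR adjusted p = 0.0015). LEFTY1, a secreted inhibitor that NODAL signals induce, held 17.9 and 12 CPM against 66.0 and 54.1 CPM (-2.01, SE 0.25, edgeR adjusted p = 0.0010). Both genes were lower in each ZNF503 shRNA library than in any of the 6 other day 0 libraries. LEFTY2, the neighbouring paralog, held 5.42 and 3.29 CPM against 19.8 and 16.1 CPM (-2.06, SE 0.26, edgeR adjusted p = 0.0014). The 2 LEFTY genes lie on chromosome 1 between positions 226073982 and 226129083 of GRCh37, and reads shared between them could not be assigned with certainty. CER1, a secreted inhibitor of NODAL, BMP and WNT, held 0.197 and 0.185 CPM against 3.30 and 4.73 CPM, 4.75% of WT (-4.39, SE 0.37, edgeR adjusted p = 6.1e-05). All 4 calls stood when any 1 library was left out. The remaining 21 of the 25 NODAL and activin pathway genes tested, receptors and SMADs included, were not called, and the median of the list was -0.003.

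Of 21 genes of the primitive streak and mesendoderm tested, 10 were called lower, 2 higher and 9 not called, with a median log2 fold change of -1.13. Over all genes tested 1.24% were called lower and 1.32% higher, and the counts of the other lists stand beside the same shares. Besides NODAL, LEFTY2 and CER1, the lower genes of this list were the signals WNT3, FGF8 and FGF4 and the transcription factors EOMES, MIXL1, SP5 and GATA6. WNT3, a ligand that starts the streak in the embryo, held 5.57 and 3.85 CPM against 18.4 and 14.9 CPM (-1.83, SE 0.18, edgeR adjusted p = 0.00021). EOMES, a T-box factor of mesendoderm, held 0.743 and 0.739 CPM against 2.24 and 2.62 CPM (-1.71, SE 0.28, edgeR adjusted p = 0.0055). GATA6, which specifies endoderm and heart, was at 0 counts in both ZNF503 shRNA libraries and at 0.438 and 0.610 CPM in WT. Taking 3 counts over the group as the floor, GATA6 was at least 21.3-fold lower. TBXT and GSC, markers of the streak itself, were not called. TBXT held 0.218 and 0.211 CPM against 0.361 and 0.280 CPM, and GSC held 2.07 and 1.65 CPM against 1.91 and 1.58 CPM. The 2 genes called higher were rare, TBX6 at 1.11 and 1.70 CPM against 0.593 and 0.406 CPM, and WNT3A at 18 counts in both libraries together against 0 counts in WT, at least 3.86-fold higher. The call of WNT3A was lost whichever of the 4 libraries was left out (edgeR adjusted p up to 0.261), and that of SP5 in 3 of the 4 such fits.

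Of 21 endoderm genes tested, 8 were lower, 1 higher and 12 not called, with a median of -1.07. APOA2, an apolipoprotein gene of endoderm and liver, was at 0 counts in ZNF503 shRNA cells and at 0.542 and 1.09 CPM in WT, at least 33.2-fold lower. SOX17, a defining factor of endoderm, had 2 counts in all against 30 counts in WT, a depth-corrected ratio of 23.3 in favour of WT (95% exact counting interval 5.92 to 202). Its call was lost in 3 of the 4 fits that left out a library (edgeR adjusted p up to 0.180). HNF4A, a hepatic and gut regulator, had 2 counts against 29 (ratio 22.6, interval 5.71 to 195). Such intervals cover counting error only. FOXA2, GATA4 and APOA1 also fell, by 4.04, 2.29 and 2.33 on the log2 scale. FOXA1, a related forkhead factor, went the other way with 1.62 and 1.28 CPM against 0.413 and 0.254 CPM (2.11, SE 0.44, edgeR adjusted p = 0.017).

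Of 24 cardiac regulators and structural genes tested, 8 were lower and 1 higher, with a median of -0.79. MYL7, the atrial myosin light chain, held 0.0437 and 0.106 CPM against 1.11 and 1.30 CPM (-3.86, SE 0.63, edgeR adjusted p = 0.0059), and MYL4, its embryonic relative, was at 0 counts against 0.361 and 0.305 CPM, at least 13.5-fold lower. NPPB, the natriuretic peptide gene, held 0.0874 and 0 CPM against 1.06 and 0.711 CPM (-4.63, SE 0.80, edgeR adjusted p = 0.0079). TBX3, a regulator of the conduction system that is also active in stem cells, held 0.480 and 0.554 CPM against 1.86 and 2.26 CPM (-1.98). ANKRD1, a cardiac ankyrin repeat protein gene that is in none of the lists, held 0.0874 and 0.0264 CPM against 2.99 and 3.25 CPM (-5.90, SE 0.63, edgeR adjusted p = 0.00039). TBX5, a cardiac and limb factor, was higher, with 3.58 and 4.45 CPM against 0.799 and 1.12 CPM (2.07, SE 0.27), and its antisense neighbour TBX5-AS1 was called higher too, but the counting is not stated to use strand, so the reads of the 2 genes cannot be told apart. Without ZNF503 shRNA replicate 2, MYL4 and NPPB were no longer called (edgeR adjusted p = 0.165 and 0.119).

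The 3 lists share members and together hold 63 genes tested, of which 23 were lower and 4 higher. Of the 23, 12 had a WT mean under 1 CPM, and 16 were lower in both ZNF503 shRNA libraries than in every other day 0 library. The same held for 161 of all 210 genes called lower (76.7%), so this was not particular to these lists. The other shRNA lines differed among themselves in genes of the 3 lists. GATA6 held 0.0245 and 0.0858 CPM in NKX2-5 shRNA cells and 2.42 and 2.02 CPM in ZEB2 shRNA cells, and CER1 held 1.89 and 0.995 CPM and 11.3 and 10.2 CPM. The summed level of the 21 mesendoderm genes was 296 to 320 CPM in ZNF503 shRNA cells and 427 to 462 CPM in WT cells. It was 350 to 408 CPM in the other shRNA lines, with no overlap between ZNF503 shRNA and the rest. NODAL alone made up a large part of the difference from WT. Of single genes tested, 12.2% lay below all 6 other libraries. The sum of the endoderm list, also dominated by a few abundant genes, was 427 to 439 CPM against 408 to 424 CPM in WT. How many cells of these cultures expressed any of the genes was not measured.

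**Figure D2:**
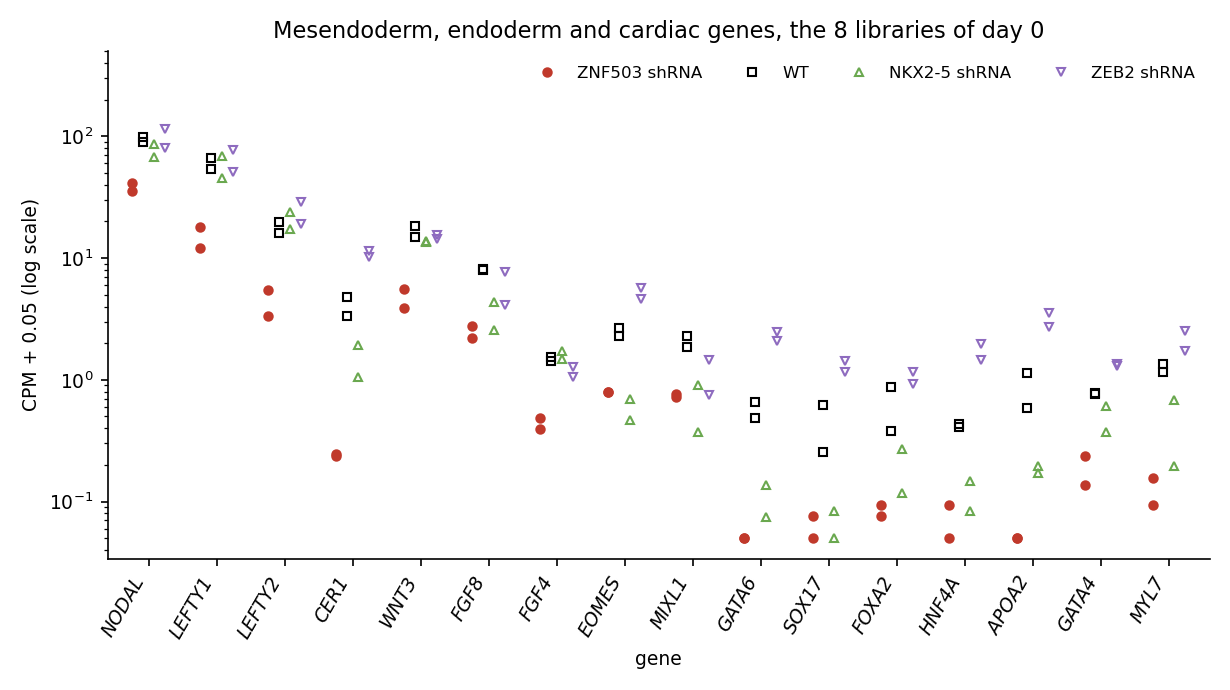
Levels of 16 mesendoderm, endoderm and cardiac genes in the 8 day 0 libraries (vertical axis, CPM + 0.05 on a log scale; 1 point per library, so that 0 counts lie at 0.05). The genes were chosen among those that were lower, and the 4 genes of these lists called higher are not drawn. By that choice, both ZNF503 shRNA libraries (filled red) lie below both WT libraries (black squares) for every gene shown. For 11 of the 16 they also lie below all NKX2-5 and ZEB2 shRNA libraries, the others being FGF8, EOMES, MIXL1, SOX17 and HNF4A. Of all genes called lower, 76.7% did so.

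Markers of other cell types moved little or in both directions. Among 10 fibroblast and stromal markers tested, POSTN (-2.31) and TAGLN (-1.53) were lower and none was higher, while the summed level was 502 to 515 CPM in ZNF503 shRNA cells and 361 to 383 CPM in WT cells. Among 9 endothelial and blood markers, TEK, the angiopoietin receptor, held 0.699 and 0.726 CPM against 4.54 and 4.65 CPM (-2.68, SE 0.25, edgeR adjusted p = 9.5e-05), and TAL1 was higher (2.31 and 2.10 CPM against 0.851 and 0.813 CPM), a call lost in all 4 fits that left out a library (edgeR adjusted p up to 0.172). The summed level of that list was 250 to 265 CPM against 288 to 309 CPM. None of 14 neuron markers was called (4 passed at an unadjusted p under 0.05), and their sum was 495 to 524 CPM against 500 to 519 CPM. No defining marker of these 3 lists that was tested was at 0 counts in either group. Their part in the results above was not tested.

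Several transcription factors of the early nervous system were higher. PAX7, a paired box factor of the dorsal neural tube, neural crest and muscle precursors, had the largest rise among genes of at least 1 CPM. It held 9.59 and 7.71 CPM in ZNF503 shRNA cells and 0.103 and 0.432 CPM in WT cells (log2 fold change 5.00, SE 0.39, edgeR adjusted p = 3.2e-05). SIX6, a homeobox factor of the eye field and hypothalamus, held 29.0 and 23.2 CPM against 1.99 and 2.06 CPM (3.69, SE 0.33, edgeR adjusted p = 8.4e-05). In all 6 other day 0 libraries PAX7 was at most 1.36 CPM and SIX6 at most 8.38 CPM. SOX14, a factor of interneurons, held 7.80 and 7.58 CPM against 1.75 and 1.45 CPM (2.26, SE 0.31), and HMX1, a homeobox factor of eye and ear, held 5.28 and 4.5 CPM against 0.774 and 1.25 CPM (2.27, SE 0.29). Of 27 neuroectoderm genes tested, SIX6, SOX1, LHX5 and POU3F1 were higher and PAX6 was lower. SOX1, which marks neural progenitors, was at 4.08 and 3.75 CPM against 1.81 and 1.55 CPM (1.22, SE 0.24), and was no longer called without ZNF503 shRNA replicate 2 or WT replicate 2. PAX6, the eye and forebrain factor, held 0.175 and 0.158 CPM against 4.80 and 3.94 CPM, 3.81% of WT (-4.71, SE 0.36, edgeR adjusted p = 2.6e-05). PAX6 thus moved against SIX6 and SOX1, and the median of the list was 0.06. Of 27 neural crest and placode genes, PAX7 and NGFR (1.07) were higher and ETS1 was lower. ETS1, at 44 and 41 CPM against 89.4 and 87.6 CPM, was one of the most abundant genes that fell (-1.06, SE 0.09).

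**Figure D3:**
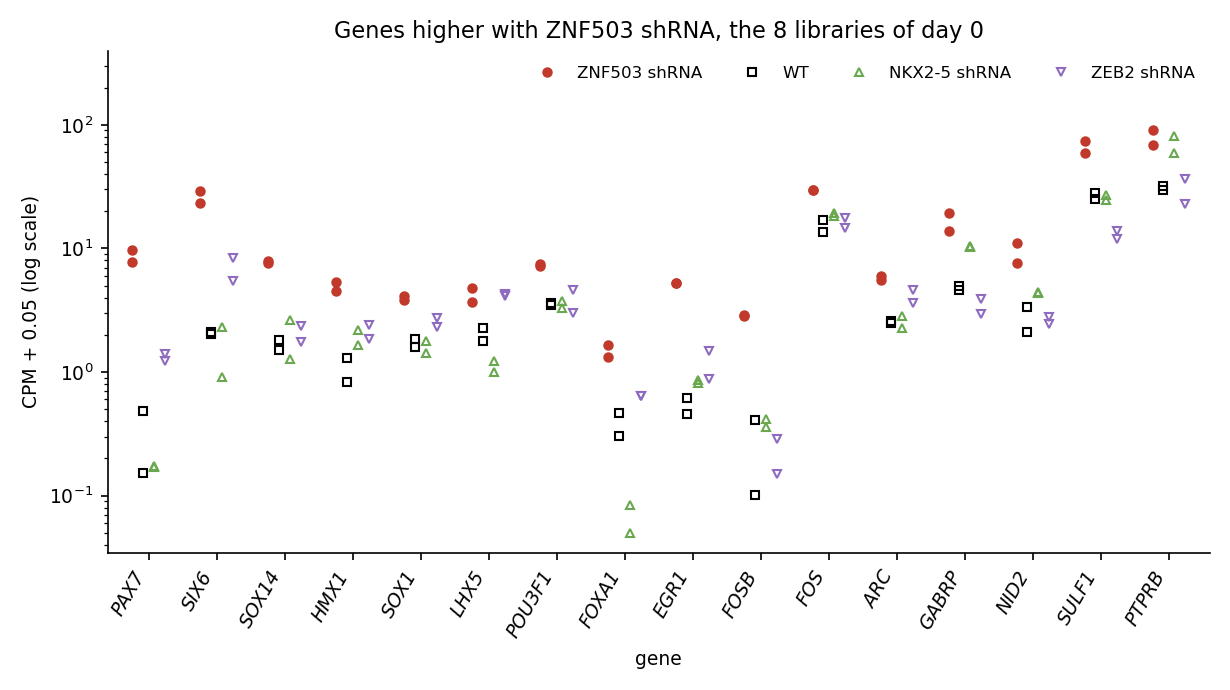
Levels of 16 genes, drawn as in the plot of mesendoderm genes (vertical axis, CPM + 0.05 on a log scale). The genes were chosen among those that were higher, so both ZNF503 shRNA libraries (filled red) lie above both WT libraries for every gene. For 14 of the 16 they also lie above all other day 0 libraries, the exceptions being LHX5 and PTPRB. Of all genes called higher, 70.9% did so.

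EGR1 and FOSB, a pair of immediate early genes that respond to growth factors and serum within minutes, were higher with ZNF503 shRNA. EGR1 held 5.2 and 5.23 CPM against 0.567 and 0.406 CPM (3.42, SE 0.33, edgeR adjusted p = 0.00017), and FOSB held 2.77 and 2.85 CPM against 0.361 and 0.0508 CPM (3.76, SE 0.55, edgeR adjusted p = 0.0032). The ZNF503 shRNA libraries were above all 6 others for both. A list of 25 immediate early genes was added after these values had been seen. Of its 23 genes tested, 4 were higher (EGR1, FOSB, ARC and FOSL1) and none lower, with a median of 0.22. ARC, an activity-regulated gene of neurons, held 5.52 and 5.97 CPM against 2.42 and 2.52 CPM (1.22, SE 0.22). FOS came close to the 2-fold threshold, with 29.5 and 29.8 CPM against 17.0 and 13.5 CPM (0.96, edgeR adjusted p = 0.0035). JUN and DUSP1 gave -0.21 and -0.06 and were not called. The summed level of the list was 640 to 654 CPM in ZNF503 shRNA cells and 628 to 662 CPM in WT cells, and higher, 697 to 829 CPM, in the other shRNA lines. Against those lines 2 of its genes were called higher and 3 lower. The 250 bases before the EGR1 start are shown because they hold the element through which serum response factor acts on this gene, the CArG box, written CCATATTAGG and CCATATATGG here and set in capitals (RefSeq, GRCh38.p14, chr5:138465229-138465478, plus strand).
EGR1: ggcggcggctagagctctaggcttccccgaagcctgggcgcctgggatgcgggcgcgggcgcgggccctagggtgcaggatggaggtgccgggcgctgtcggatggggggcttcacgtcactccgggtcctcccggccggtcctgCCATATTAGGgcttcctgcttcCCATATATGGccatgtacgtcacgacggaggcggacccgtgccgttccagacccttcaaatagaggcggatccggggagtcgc
A CArG box was searched on both strands as CC, 6 bases of A or T, and GG. It was present in 2.52% of the promoters of higher genes, 1.52% of those of lower genes and 1.07% of those of all genes tested, and not in the 250 bases before FOSB or FOS. A match is a description of the letters only.

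The most abundant genes called higher were PTPRB, CLK1, OLFML3, SULF1 and PIEZO2. PTPRB, a receptor phosphatase of vessels, held 68.2 and 90.9 CPM against 32.2 and 29.4 CPM (1.37, SE 0.22), and CLK1, a kinase of splicing factors, held 66.1 and 75.4 CPM against 32.3 and 31.1 CPM (1.16, SE 0.13). SULF1, which removes sulfate groups from heparan sulfate outside the cell, held 59.6 and 74.1 CPM against 25.1 and 27.9 CPM (1.34, SE 0.13), and PIEZO2, a mechanically gated channel, held 47.5 and 51.0 CPM against 22.1 and 24.1 CPM (1.09, SE 0.20). OLFML3, a secreted olfactomedin-like protein gene, stood at 66.5 and 70.2 CPM against 28.8 and 27.7 CPM (1.27, SE 0.19), a level that ZEB2 shRNA cells also had (67.7 and 55.4 CPM). CLK1, SULF1 and PIEZO2 were above all 6 other day 0 libraries, and PTPRB and OLFML3 were not. PIEZO2 was no longer called without ZNF503 shRNA replicate 2 (edgeR adjusted p = 0.121) or WT replicate 1. Of 45 matrix and collagen genes, NID2, a basement membrane protein gene, was called higher (7.51 and 11.0 CPM against 2.06 and 3.30 CPM, 1.79, SE 0.25) and POSTN lower. At 5% FDR with no fold threshold 12 were higher and 1 lower, beside 4.01% and 3.52% of all genes tested (7.53% in either direction), and the median was 0.28. GABRP, a GABA receptor subunit gene of the amnion list, was higher (13.8 and 19.3 CPM against 4.59 and 4.93 CPM, 1.80, SE 0.20), with VTCN1 the only other of 13 trophoblast and amnion genes called, at 0.393 and 0.211 CPM against 0.0258 and 0.0762 CPM and with no adjusted p from DESeq2.

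Metallothionein genes, which code for small proteins that bind zinc and copper and are induced by metals through metal response elements, were lower in part. Of 11 tested, 4 were lower and none was higher, with a median of -0.72, and 7 were lower at 5% FDR. MT1G held 8.06 and 8.37 CPM against 31.6 and 38.0 CPM (-2.08, SE 0.14, edgeR adjusted p = 8.8e-06). MT1H held 2.69 and 1.83 CPM against 14.6 and 16.3 CPM (-2.80, SE 0.20, edgeR adjusted p = 1.4e-05), and MT1E held 10.5 and 8.79 CPM against 30.0 and 35.7 CPM (-1.77, SE 0.15). MT1M, the fourth, was low throughout (-2.10). MT1F, MT2A and MT1X lay below WT by less than 2-fold, with -0.54, -0.72 and -0.39 (edgeR adjusted p = 0.012, 0.0088 and 0.039). All 4 called genes were also below the 4 libraries of the other shRNA lines, as were 76.7% of all genes called lower. The 4 genes lie on chromosome 16 between positions 56659387 and 56705041 of GRCh37. MT1HL1, a related gene elsewhere in the genome, was lower as well (-3.04). The metallothionein genes are near-identical in parts, so the split of reads between them is uncertain. The sum of the 11 was 741 to 766 CPM against 788 to 799 CPM in WT. That sum was lower still in ZEB2 shRNA cells, at 670 and 714 CPM, and higher in NKX2-5 shRNA cells, at 1029 and 1034 CPM.

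The promoters of MT1H, the metallothionein gene of this cluster with the largest fall that has an entry in the promoter table, and of MT2A and MT1X, which did not reach 2-fold, are shown to let the response elements be compared. The core of the metal response element was searched as TGCACNC and TGCGCNC on both strands, and matches are in capitals (250 bases before the start, RefSeq, GRCh38.p14, all plus strand, at chr16:56669564-56669813, chr16:56608334-56608583 and chr16:56682220-56682469 in that order).
MT1H: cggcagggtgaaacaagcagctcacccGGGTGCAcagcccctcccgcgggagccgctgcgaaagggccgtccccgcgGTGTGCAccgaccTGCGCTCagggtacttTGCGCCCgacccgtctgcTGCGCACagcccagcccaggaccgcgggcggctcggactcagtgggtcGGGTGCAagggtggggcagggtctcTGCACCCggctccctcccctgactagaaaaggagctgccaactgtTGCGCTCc
MT2A: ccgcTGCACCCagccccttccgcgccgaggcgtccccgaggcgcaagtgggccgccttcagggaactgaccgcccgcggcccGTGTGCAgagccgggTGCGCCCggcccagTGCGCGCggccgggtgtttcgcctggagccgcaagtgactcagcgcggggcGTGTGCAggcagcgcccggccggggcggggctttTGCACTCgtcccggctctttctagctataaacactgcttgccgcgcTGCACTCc
MT1X: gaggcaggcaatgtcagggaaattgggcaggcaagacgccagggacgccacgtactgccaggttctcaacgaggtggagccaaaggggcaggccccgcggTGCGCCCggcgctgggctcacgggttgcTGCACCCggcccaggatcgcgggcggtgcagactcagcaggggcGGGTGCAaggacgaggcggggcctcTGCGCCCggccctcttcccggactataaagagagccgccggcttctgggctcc
MT1H holds 8 such matches, MT2A 7 and MT1X 4. At least 1 match was found in 32.6% of the promoters of all genes tested, in 31.8% of those of lower genes and in 35.2% of those of higher genes.

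For the promoters of all called genes, motif and CpG content were counted. A promoter was on hand for 159 of 223 higher genes, 132 of 210 lower genes and 12793 of all genes tested. An observed over expected CpG ratio of at least 0.6 was found in 57.2% of the promoters of higher genes and 45.5% of those of lower genes, against 75.5% of all genes tested. The median GC content was 64.4%, 58.4% and 64.4% in the same order. TATAAA, searched on both strands, was present in 8.81%, 7.58% and 6.12%, CCAAT in 32.7%, 30.3% and 34.7%, and CACCC in 61.0%, 65.9% and 58.2%. These shares were not tested.

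Genes with a strong fall included cystatins, single zinc finger genes and an imprinted pair. CST1, a secreted inhibitor of cysteine proteases, held 0.0437 and 0.0396 CPM against 2.79 and 2.90 CPM, 1.47% of WT (-6.04, SE 0.43, edgeR adjusted p = 1.4e-05). Its neighbours on chromosome 20 fell with it, CST4 to 0 counts (at least 17.1-fold lower) and CST2 to 3 counts against 17 (ratio 8.82, 95% exact counting interval 2.55 to 47.0). The 3 cystatin genes were also at 0 or near 0 in NKX2-5 shRNA cells and high in ZEB2 shRNA cells, where CST1 held 11.5 and 14.7 CPM, and reads can be shared between these paralogs. Together with ANXA1, a calcium-binding annexin gene at 0.153 and 0.0528 CPM against 0.309 and 0.940 CPM (-2.75), they were the 4 genes called among 19 annexin, cystatin and protease inhibitor genes.

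ZNF502, a zinc finger gene of unsettled function, held 0.830 and 0.884 CPM in ZNF503 shRNA cells and 8.36 and 9.45 CPM in WT cells, 9.63% of WT (-3.37, SE 0.22, edgeR adjusted p = 8.8e-06). It was at 7.14 to 9.97 CPM in the 4 libraries of the other shRNA lines. ZNF662 held 0.109 and 0.0660 CPM against 1.52 and 1.42 CPM (-4.12, SE 0.36), and ZNF560 held 0.0437 and 0.0264 CPM against 1.03 and 1.35 CPM (-5.08, SE 0.44). Of 564 zinc finger genes with such names that were tested, a group drawn up after the values had been seen, 7 were lower (1.24%, the same share as among all genes) and 3 higher (0.532%, beside 1.32%). PEG3, a zinc finger gene expressed from the paternal allele, held 0.546 and 0.449 CPM against 4.67 and 4.88 CPM (-3.27, SE 0.55, edgeR adjusted p = 0.0070). ZIM2, which shares its promoter region with PEG3 on chromosome 19, was at 0 counts against 0.335 and 0.559 CPM, at least 18.2-fold lower. Here WT stood apart from all 3 shRNA lines, since PEG3 held 0.0490 to 0.515 CPM in the NKX2-5 and ZEB2 shRNA libraries too, and the difference from them was 0.62 (edgeR adjusted p = 0.44). Of 37 imprinted genes tested, LRRTM1 was the third lower gene and IGF2, a growth factor gene, the 1 higher (2.62 and 2.35 CPM against 1.39 and 1.07 CPM, 1.01). The median was -0.01, and H19, the maternal partner of IGF2, gave 0.01. Without ZNF503 shRNA replicate 2 neither PEG3 nor ZIM2 was called.

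H1-1, a replication-dependent linker histone gene, was the most abundant gene called lower. It held 68.5 and 56.1 CPM against 215 and 219 CPM (-1.80, SE 0.12, edgeR adjusted p = 8.8e-06), and 168 to 237 CPM in the other shRNA lines. PKIB, an inhibitor of protein kinase A, held 38.0 and 38.7 CPM against 92.9 and 92.1 CPM (-1.27, SE 0.11), and NETO2, an auxiliary subunit of kainate receptors, held 44.9 and 42.1 CPM against 97.9 and 89.4 CPM (-1.11, SE 0.14). All 3 were below every other day 0 library. Of 35 cell cycle and replication genes tested, CDKN2B, an inhibitor of CDK4 and CDK6, was the only call, at 0 counts against 12 counts, and the median was -0.11.

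The naive pluripotency and germline lists held some lower genes. Of 17 naive pluripotency genes tested, 5 were lower (DPPA5, TBX3, GATA6, FGF4 and MAEL) and ESRRB was higher, at 0.874 and 0.964 CPM against 0.284 and 0.203 CPM (1.91, SE 0.46, edgeR adjusted p = 0.030). GATA6, FGF4 and TBX3 belong to the germ layer lists as well, and MAEL to the germline list. GATA6 is a factor of endoderm, so its fall is not a fall of a marker of the naive state. DPPA5, a pluripotency associated gene, held 0.677 and 0.370 CPM against 2.30 and 1.47 CPM (-1.90). Among 8 stem cell long noncoding RNAs, HHLA1, which lies beside a retroviral repeat, held 4.63 and 3.18 CPM against 10.5 and 11.0 CPM (-1.49, SE 0.19), and LINC-ROR held 1.35 and 1.4 CPM against 3.53 and 3.48 CPM (-1.35, SE 0.30). Of 22 germline and cancer testis genes, MAEL and TDRD1, both of the piRNA pathway, SOX17 and ZNF560 were lower. In MAEL and ZNF560 the NKX2-5 shRNA libraries stood far above WT, at 8.63 to 8.67 and 14.9 to 16.8 CPM.

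Of 41 HOX and CDX genes in the table, only 4 had enough counts to be tested, and CDX4, HOXB2 and HOXB3 were lower. CDX4, a caudal homeobox gene of the posterior axis, held 0.983 and 0.739 CPM against 1.68 and 2.62 CPM (-1.34), and HOXB2 had 2 counts against 24 (ratio 18.7, 95% exact counting interval 4.63 to 163). Their calls were lost in at least 2 of the 4 fits that left out a library.

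Among other signals the changes were few. Of 27 FGF pathway genes, EGR1 and DUSP4, a phosphatase that acts on ERK, were higher and FGF4 and FGF8 lower. DUSP4 held 32.8 and 32.8 CPM against 15.2 and 14.5 CPM (1.14, SE 0.16). FGF8 held 2.14 and 2.69 CPM against 7.99 and 8.16 CPM (-1.73, SE 0.31). Of 38 WNT pathway genes, FZD2, a WNT receptor, was higher (31.4 and 28.2 CPM against 12.6 and 11.3 CPM, 1.31, SE 0.14), with WNT10B and WNT3A at few counts, while WNT3 and SP5, a target of WNT, were lower. Of 23 Notch pathway genes, the target HES4 was higher (1.4 and 1.27 CPM against 0.438 and 0.381 CPM, 1.69) and HEY1, another target, was lower (4.15 and 2.11 CPM against 8.61 and 7.85 CPM, -1.42). No gene of the BMP (29 tested) or retinoic acid (19 tested) lists was called, and 11 and 4 passed at an unadjusted p under 0.05. ID1, a BMP target, came close with 43.2 and 32.8 CPM against 76.9 and 72.7 CPM (-0.98, edgeR adjusted p = 0.0017), and its relative ID2 lay above WT (0.48, edgeR adjusted p = 0.046).

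Lists of genes that respond to short hairpins, to stress or to a change of metabolism held few or no calls. WT cells carried the vector too, so a response to it that both groups share would not show in this contrast. Of 33 genes of the short hairpin and interferon response, IFI6 was higher (0.612 and 0.792 CPM against 0.103 and 0.229 CPM) and MX2 lower, and of 27 p53 targets GDF15 was higher (2.29 and 3.34 CPM against 0.877 and 1.14 CPM, 1.49). MX2 and GDF15 were not called under DESeq2. None was called among 19 small RNA processing genes, 30 unfolded protein and amino acid stress genes, 35 hypoxia and glycolysis genes, 30 cholesterol synthesis genes and 30 DNA methylation and histone modifying enzymes. At an unadjusted p under 0.05, 8, 6, 10, 7 and 12 of these passed in the same order. HSPA5, the chaperone of the endoplasmic reticulum, lay below WT by less than 2-fold (54.7% of WT, log2 fold change -0.87, edgeR adjusted p = 0.0015), as did SLC7A11, the cystine transporter (-0.78, edgeR adjusted p = 0.00070). Of 30 protocadherins PCDH19 was higher (1.33), with a list median of 0.43. Of 34 epithelial and mesenchymal transition genes, TAGLN was the 1 call, and of 12 genes of the ZNF503 family and its corepressors, SP5. Over the 35 lists, 9 held no call, and 76 of the 764 list genes tested were called, beside 433 of all 16891 genes tested (2.56%). The lists were chosen with earlier results of these data known, and the difference in share was not tested.

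**Figure D4:**
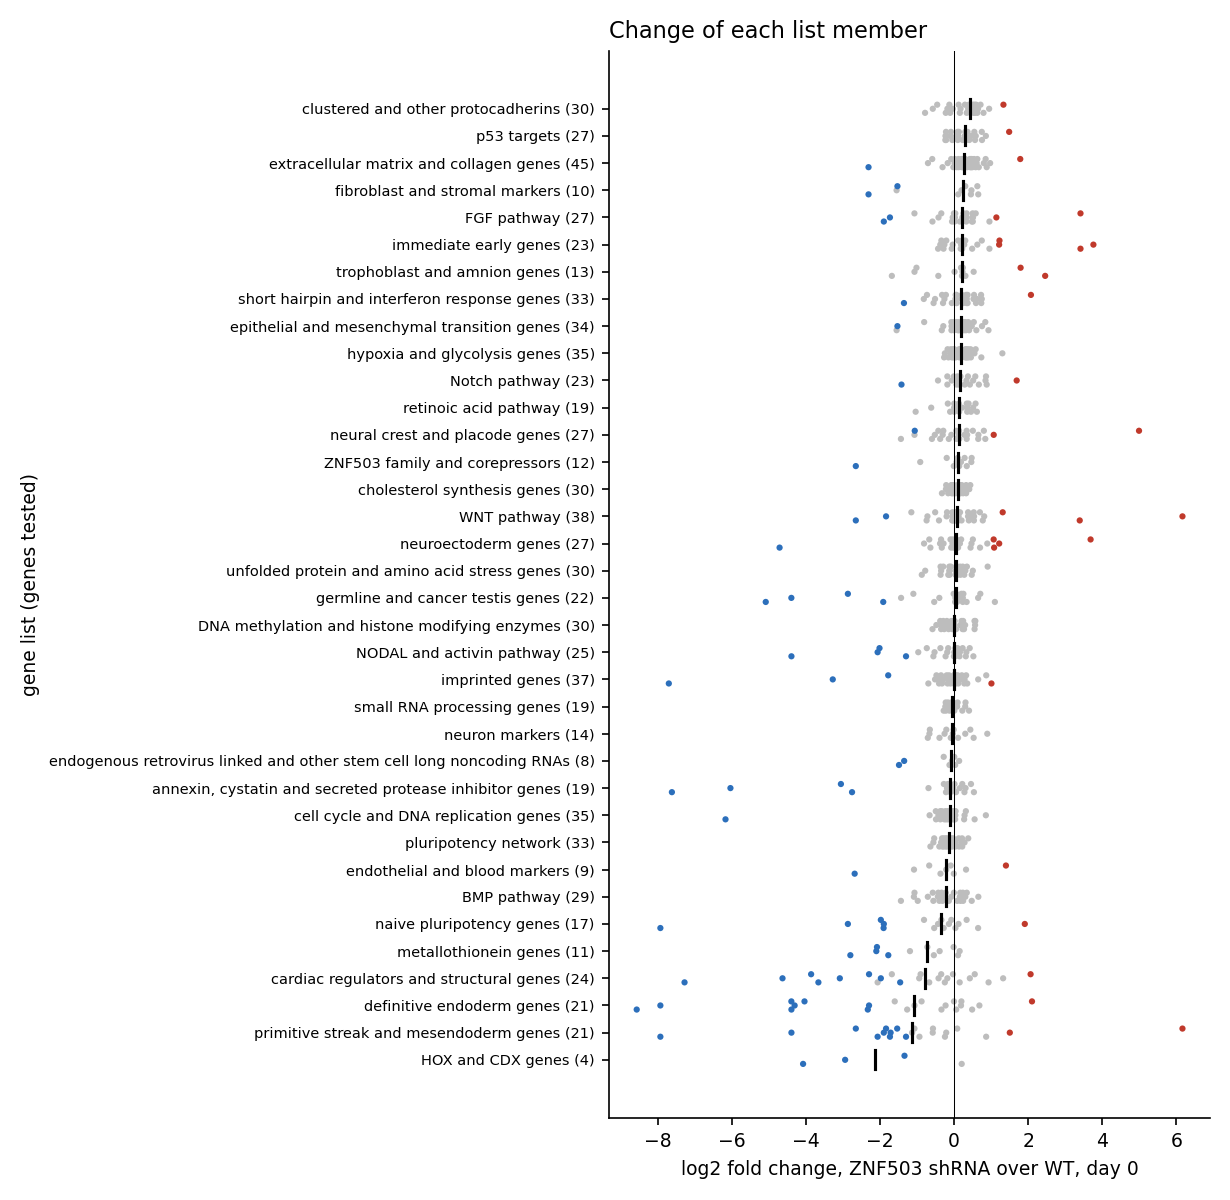
Log2 fold change of every tested gene of each list, ZNF503 shRNA over WT at day 0 (horizontal axis), with lists ordered by their median (black bars) and the number tested in brackets. Red points were called higher, blue lower and grey not called; the HOX and CDX, mesendoderm, endoderm and cardiac lists have the lowest medians, and the list of immediate early genes was added after its values had been seen.

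ZNF503 shRNA cells were next compared with the mean of NKX2-5 and ZEB2 shRNA cells, which carry the same vector with another hairpin. This contrast shares the ZNF503 shRNA libraries with the one against WT, so the 2 sets of calls are not independent. It called 994 genes (percent called 5.88), 466 higher (2.76) and 528 lower (3.13). NODAL fell by 1.16, LEFTY1 by 2.02, LEFTY2 by 2.37 and CER1 by 4.35 on the log2 scale against the other lines (edgeR adjusted p = 0.00032, 0.00013, 6.9e-05 and 1.1e-05). PAX7 was 4.44 and SIX6 2.97 above the other lines, EGR1 2.47 and FOSB 3.53. MT1G was 2.61 and ZNF502 3.32 below them, in each case past the threshold. MIXL1, HEY1 and HES4 gave -0.15, -0.16 and 0.18 and were not called there. Of the genes called against WT, 158 of 223 higher and 161 of 210 lower genes had both ZNF503 shRNA libraries outside the range of all 6 others (70.9% and 76.7%). Called genes already lie outside both WT libraries, and of all genes tested that do so, 42.4% (above) and 39.7% (below) lay outside all 6.

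Differences at day 0 were then followed to days 2 and 6 of cardiac differentiation, in libraries that the day 0 test did not use, at the same threshold of 2-fold and 10% FDR. It was passed by 9.12% of all genes at day 2 and 27.4% at day 6. Of 164 genes called lower at day 0 and tested at day 2, 65 (39.6%) were also called lower at day 2, beside 5.97% of all genes tested, and 17 were called higher. Of 208 called higher, 38 (18.3%) were higher at day 2, beside 3.15%, and 36 were lower. At day 6, 60 of 160 lower genes (37.5%, beside 13.8%) were called lower again and 36 were called higher. Of 176 higher genes, 36 (20.5%, beside 13.6%) were called higher again and 48, a larger number, were called lower. Among genes tested on all 3 days, 27 of 135 (20.0%) were lower on each day and 3 of 170 (1.76%) higher on each day, beside 1.34% and 0.894% of all genes tested called so at both later days. The shares of lower and higher genes that recurred were not tested against each other.

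The 27 genes lower on each day included ZNF502, ZNF662, PEG3, ZIM2, TAF9B, PKIB, HAS2, LRRC61, IAH1 and HOXB2. TAF9B, a subunit of TFIID-like complexes, held 3.82 and 3.66 CPM against 18.1 and 17.8 CPM at day 0 (-2.26, SE 0.13, edgeR adjusted p = 6.2e-06). Its log2 fold change was -2.12 at day 2 and -1.94 at day 6. ZNF502 gave -2.69 and -2.52 on these days and PKIB -1.17 and -1.08. HAS2, the hyaluronan synthase needed for the cardiac cushions, held 16.3 and 16.3 CPM against 46.0 and 43.5 CPM at day 0 (-1.46, SE 0.22) and gave -2.22 at day 2 and -4.30 at day 6. IAH1 and MIR4458HG had no count in the ZNF503 shRNA libraries at day 0, were at least 10.9-fold and 14.5-fold lower, and were at 0 to 0.0572 CPM in ZEB2 shRNA cells too. The 3 genes higher on each day were HES4, LONRF2 and PIEZO2. PIEZO2 gave 1.60 at day 2 and 2.88 at day 6.

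Of the signalling and metallothionein genes, several crossed over. NODAL, which fell by 1.30 at day 0, gave 0.12 at day 2 (151 and 186 CPM against 154 and 156 CPM) and 2.87 at day 6 (28.5 and 20.1 CPM against 2.14 and 4.24 CPM). CER1 gave -1.59 at day 2, when WT cells had reached 2015 and 2073 CPM and ZNF503 shRNA cells 620 and 738 CPM, and 0.02 at day 6. MT1G and MT1E turned from lower at day 0 to higher at day 2 (2.35 and 1.69). EGR1 did not differ by 2-fold on either later day (-0.46 and -0.25). PAX7 gave 1.14 at day 2 and -2.26 at day 6. SIX6 was still called higher at day 2, with 362 counts in ZNF503 shRNA cells and 2 in WT cells (ratio 73.5, 95% exact counting interval 20.2 to 610), and PAX6 was called lower, with 2 counts against 11 (ratio 13.5 in favour of WT, interval 2.95 to 126). A change of the difference from day 0, tested as an interaction, was called for 1742 genes at day 2 (10.0%), 609 upward (3.50%) and 1133 downward (6.50%), and for 4226 genes at day 6 (24.3%), 1906 upward (10.9%) and 2320 downward (13.3%).

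**Figure D5:**
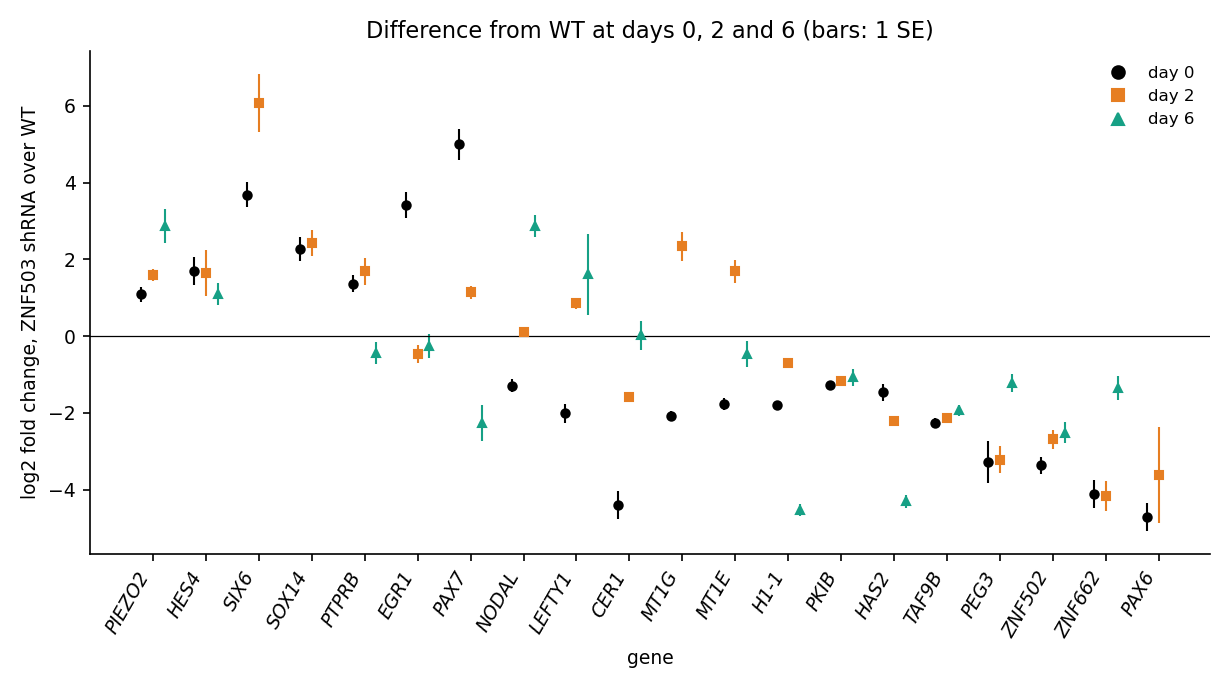
Log2 fold change, ZNF503 shRNA over WT, of 20 genes at day 0 (black), day 2 (orange) and day 6 (green), with bars of 1 SE (vertical axis); a missing point was not tested on that day. ZNF502, ZNF662, TAF9B, PEG3, PKIB and HAS2 lie below 0 on all 3 days, PIEZO2 and HES4 above 0, and NODAL, LEFTY1, MT1G and PAX7 cross 0.

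Positions were compared last. Among genes of at least 1 CPM with a GRCh37 position, the median log2 fold change per chromosome ran from -0.09 on chromosome 21 to 0.13 on chromosome 22. Over windows of 10 Mb with at least 10 genes the median ran from -0.22 to 0.24. Called genes of the same direction lay within 100 kb of each other in 39 neighbouring pairs, 16 higher and 23 lower, among them the LEFTY, metallothionein, cystatin, HOXB and PEG3 pairs named above. Overlapping genes in these pairs, such as TBX5 with its antisense RNA or IGF2 with INS-IGF2, share reads.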

How the data were processed

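RNA was sequenced by the authors from stranded total RNA libraries. Per their methods and processing notes, paired-end reads were mapped to hg19 (GRCh37) with TopHat2 2.0.14 (Bowtie2 2.2.1.0, SAMtools 0.1.19.0), allowing 2 mismatches and keeping 1 best hit. RSeQC then gave the counts of each RefSeq gene region. Whether counting used strand is not given in the sources used here. The deposited values are raw counts, whole numbers with no normalization, for 41627 accessions. Symbols came from a RefSeq table, which matched 40285 (96.8%). Unmatched accessions held 2.69 to 3.04% of the counts and were left out. For each symbol the row with the largest total was used. Columns of 4 day 10 libraries, in which rows do not follow the accessions, were not analysed here.

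Counts were fitted with edgeR 4.0.16 in R 4.3.3 (filterByExpr, TMM, glmQLFit and glmQLFTest, prior count 0.125) over all 8 day 0 libraries, and over the 8 libraries of each later day. A change of the difference over time was tested as an interaction over the 12 ZNF503 shRNA and WT libraries. SE was taken as the absolute log2 fold change over the root of F. The steps were tested on simulated data. P-values rest on the spread between the 2 libraries of a group, estimated jointly over all groups of a fit. At day 0 this spread was uneven. Chi-square per gene, a measure of how far replicates differ, was 14.1 (ZNF503 shRNA) and 5.2 (WT), but 44.3 (NKX2-5 shRNA) and 42.8 (ZEB2 shRNA). The p-values against WT thus draw on libraries outside the comparison. Fitting only the 4 libraries of ZNF503 shRNA and WT called 515 genes, 396 of them among the 433. Positions are from GENCODE for GRCh37, and promoters from RefSeq for GRCh38.p14. The count floor was 3 counts over the 2 libraries of a group, and ratios have exact (Clopper-Pearson) 95% intervals.

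The comparison and all gene lists were chosen with earlier results of these data known. Named genes were ZNF503, ZNF703, POU5F1, NANOG and SOX2, the 10 largest rises and 10 largest falls of at least 1 CPM, the 5 most abundant genes called in each direction, and up to 3 called genes per list, or, where a list had none, up to 2 at 10% FDR of any fold. Others, such as TAF9B, HAS2, the neighbours and further list members, were chosen after their values were seen. Alternatives were other libraries in the fit, scaling, filters, gene rows, call rules, DESeq2 1.42.0, the exact test, the replicate block and leaving out each library.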

Additional observations from a re-analysis of the deposited data

Results flagged for a closer look

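For genes named by the rule, the difference between ZNF503 shRNA and WT cells was compared between day 0 and the later days with an interaction term (edgeR quasi-likelihood test, 2-fold and 10% FDR over 17420 genes, of which 10.0% passed at day 2 and 24.3% at day 6). Values are the log2 difference at the later day minus that at day 0. Many of these genes were chosen for a large day 0 difference, in the same day 0 libraries that the interaction subtracts. Part of any movement toward 0 is therefore set by that choice, and how large this part is was not tested.

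At day 2, the difference moved down for EGR1 (-3.86), PAX7 (-3.83), FOSB (-3.55), C20orf203 (-4.63), TCP10L (-3.20), HMX1 (-2.52) and CLK1 (-1.20), which were higher at day 0. The fitted value for SIX6 was 2.40, from 2 counts in WT at day 2. It moved up for genes that were lower at day 0, namely CST1 (5.52), MT1HL1 (4.48, with 3 counts in WT at day 2), MYL7 (3.29), CER1 (2.81), NODAL (1.43), ETS1 (1.30), H1-1 (1.13) and NETO2 (1.07). NANOG (1.48) and SOX2 (1.33), not called at day 0, moved up as well.

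At day 6, it moved down for PAX7 (-7.25), EGR1 (-3.68), C20orf203 (-3.47, from 4 and 14 counts at day 6), FOSB (-3.46), SULF1 (-3.18), TCP10L (-3.04), CLK1 (-2.10), PTPRB (-1.83) and OLFML3 (-1.76), and up for PIEZO2 (1.80). Of genes lower at day 0, PAX6 (6.74, from 12 and 4 counts at day 6), CST1 (6.74), ANKRD1 (5.71), CER1 (4.38), NODAL (4.13), ZNF662 (2.73), PEG3 (2.04) and ETS1 (1.06) moved up and H1-1 moved down further (-2.74). NANOG moved by 1.24. ZNF503 itself moved by -4.12, from counts near the floor at day 0.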

How the results depend on the processing

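No gene called at day 0 changed direction in any alternative. The alternatives reuse the same libraries, in which the groups of every called gene do not overlap, so a change of direction was hardly possible. Among named values, POU5F1 turned to 0.013 without a scaling factor and ZNF703 ranged from -0.81 (without ZNF503 shRNA replicate 1) to 1.30 with 1 library left out. Counts of calls depended on the call rule and on each library. With glmTreat against 2-fold, 43 genes were called (9 higher, 34 lower), 22 of them in the lists, and 171 (47 and 124) against the other shRNA lines. At 5% FDR with no fold threshold these were 1272 (678 and 594), 147 and 4115 (2143 and 1972), 242 and 444 day 0 calls recurred at days 2 and 6, and the interaction called 3664 genes (1918 up, 1746 down) at day 2 and 7397 (3531 and 3866) at day 6. At least 1 CPM in 2 libraries gave 642 calls (299 and 343) against the other lines. Leaving out 1 library gave 119 to 237 calls (55 to 119 higher, 64 to 118 lower), 33 to 56 list genes, 39 to 56 recurring at day 2 and 27 to 49 at day 6, and 349 to 416 lower genes against the other lines. Of 72 named calls, 41 stood in all 4 such fits, and 12 in none (CDKN2B, CST2, GDF15, HES4, LINC-ROR, LRRTM1, MX2, PCDH19, TAL1, VTCN1, WNT10B and WNT3A). C20orf203, HEY1, HOXB2, HOXB3, IFI6, NGFR, SOX17, SP5 and ZIM2 stood in 1 of the 4. Without a scaling factor 56.9% of calls were higher (51.5% with TMM). Same-numbered replicates of ZNF503 shRNA and WT did not deviate together (r = 0.0424). With the replicate block 359 genes were called, and GDF15, MX2 and VTCN1 were lost. DESeq2 also called 359, of which 346 were among the 433.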

Other observations

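The CXC chemokine genes and the collagen genes, of which part are in the matrix list above, were drawn up as families after their values were seen. Among all genes tested, 1.24% were called lower and 1.32% higher. Of 11 CXC chemokine genes tested, 5 were lower with ZNF503 shRNA at day 0 and none was higher, with a median log2 fold change of -0.90. All 5 lie on chromosome 4 between positions 74702357 and 74964913 of GRCh37. Besides CXCL6, they had few counts over both libraries of a group. CXCL1 had 6 against 26 in WT, CXCL2 6 against 23, PF4 20 against 49 and CXCL3 62 against 105. CXCL6, a neutrophil attractant, held 0.874 and 0.937 CPM against 1.73 and 2.52 CPM (-1.22, edgeR adjusted p = 0.026), and CXCL5 held 3.01 and 3.30 CPM against 5.91 and 5.95 CPM (-0.90, edgeR adjusted p = 0.011), just under 2-fold. CXCL12, the abundant ligand of CXCR4, gave -0.02 at 38.3 and 39.7 CPM against 38.7 and 40.2 CPM. Of 41 collagen genes, COL7A1 (1.55), COL23A1 (1.35), COL9A1 (1.29) and COL24A1 were higher and none was lower, with a median of 0.34.

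CAV1, the main protein of caveolae, held 13.2 and 11.8 CPM against 40.7 and 39.6 CPM (-1.69, SE 0.12, edgeR adjusted p = 1.9e-05), and DACT1, an inhibitor of WNT signalling, held 4.89 and 4.57 CPM against 19.2 and 17.7 CPM (-1.97, SE 0.13, edgeR adjusted p = 8.8e-06). Both were below all 6 other day 0 libraries. CGAS, the sensor of cytosolic DNA, was lower (4.72 and 3.85 CPM against 9.90 and 8.64 CPM, -1.12). TXNIP, which binds thioredoxin and responds to glucose, was higher (18.1 and 30.9 CPM against 6.60 and 8.79 CPM, 1.68) and was higher still in NKX2-5 shRNA cells, at 47.3 and 54.8 CPM.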
